A study of Mus musculus with 4 samples.

Results

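Replication timing was compared between a non-induced and a control culture of mouse embryonic fibroblasts, with 1 array a side, as a yardstick of how far timing varies between reference cultures of these cells. The comparison used 2 of the 4 arrays of the series and was limited to autosomes, chromosomes 1 to 19. Timing was the log2 ratio of early over late S phase signal, centred on each array's autosomal median and averaged in windows of 200 kb on mouse build mm9 with 5 or more probes. Higher values mean earlier replication, and 0 is the middle autosomal probe. This gave 11314 windows, which hold 2262.8 Mb.

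Mouse embryonic fibroblasts are connective tissue cells cultured from mouse embryos. Both cultures took up BrdU, a thymidine analogue, at 50 µM for 1 hour at 3% oxygen, and 80000 cells were sorted by DNA content into early and late parts of S phase. Newly made DNA of the early fraction was labelled with Cy3 and that of the late fraction with Cy5, after whole genome amplification. The genotype label of the control array is only "control", and that of the other is "Non-induced suv4-20h mutant". The series also holds a KO array, whose label gives the floxed SUV4-20H1 allele as deleted, which lay on the slide of the control, and an induced mutant array, which lay on the slide of the non-induced one. The labels give the line as MEF 362.2 in the titles and cell line fields and as MEF 364.2 in the protocols. Treatment with 4-hydroxytamoxifen at 1 mM for 24 hours to delete the floxed allele is listed for both compared arrays, as for KO and induced. The labels do not say whether the control or the non-induced cells carried that allele, and they do not say what induction was. Strain, embryo age and passage are not given, so slide, line, genotype and culture cannot be told apart in this comparison, and no test between conditions was made.

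DNA of a mammalian cell is copied in a set order through S phase, in large blocks that replicate together. Early blocks tend to be rich in genes and open chromatin, and late blocks are often poor in genes, compact and held at the nuclear lamina. Suv4-20h enzymes methylate histone H4 at a lysine that is associated with heterochromatin, and many blocks change their timing between cell types. The probes are named by mm9 coordinates only, and genes were not placed here, so regions are given by position and the fibroblast identity was not checked on marker genes.

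Both channels were well above background in 94.1% of autosomal spots on the control array and 94.9% on the non-induced array. Among 1000 probes printed several times, the median SD of the log2 ratio was 0.16 and 0.12. The spread between neighbouring probes, as the scanner software reports it, was 0.42 and 0.48. Of 134 spots on chromosome Y, 58 were well above background in both channels in control and 61 in non-induced, against 117 in KO. Median total signal, non-induced minus control, was -0.052 on X and -0.49 on Y. For KO minus control these were -0.47 and 1.49, so the sex chromosome signal of the reference pair was closer than that of KO and control.

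Timing of the same windows followed one order on both arrays, with a wide band around it. Across windows, which are neighbours on chromosomes and share one array design, the timing of non-induced and control cells had Pearson's r = 0.87 and Spearman's rho = 0.86. The window difference, non-induced minus control, had a mean of -0.052 and an SD of 0.39. Its 5th and 95th percentiles were -0.69 and 0.62, and the 1st and 99th were -1.02 and 0.88. For scale, timing ran over 1.82 from the 10th to the 90th percentile of windows in control and over 2.08 in non-induced cells, a ratio of 1.14. In 5716 windows (50.5%) the 2 arrays differed by at least 0.25, in 2227 (19.7%) by at least 0.5 and in 180 (1.59%) by at least 1.

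A window was called later or earlier where its difference reached 0.25 of the control range, which is 0.45 on the log2 scale, and 3 times its standard error (SE) over probes. By this rule non-induced cells were later than control in 1189 windows (10.5%), which hold 237.8 Mb, and earlier in 970 (8.57%), which hold 194.0 Mb. When each array was given the spread of control, called scaling from here on, 852 windows (7.53%) were later and 843 (7.45%) earlier. Of those called as measured, 792 of the later (66.6%) and 771 of the earlier windows (79.5%) were still called in the same direction, and 0 turned. Centred on windows in place of probes, 836 were later and 1275 earlier. Earlier windows outnumbered later ones in 7 of 18 alternative settings, among them quantile normalization (792 later, 864 earlier), windows of 10 or more probes (753 and 865) and removal of a linear trend on timing (740 and 1034). These settings overlap in what they change. Which direction was the more frequent thus depended on the processing.

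**Figure D1:**
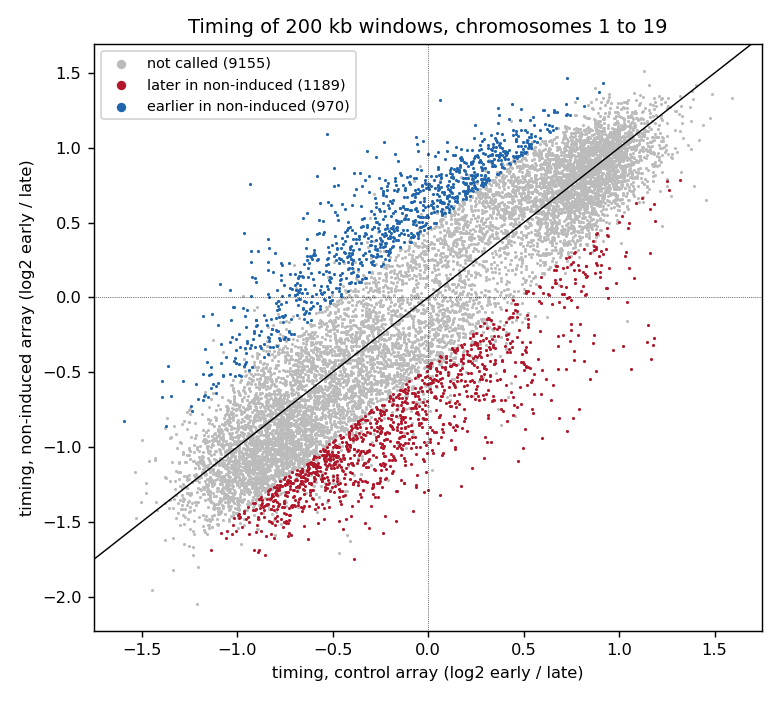
Timing of 11314 autosomal windows of 200 kb on the control array (x axis) and the non-induced array (y axis), both as log2 of early over late signal, each point 1 window. The line marks equal timing; 1189 windows below it (red) were called later and 970 above it (blue) earlier in non-induced cells, and few of the red points lie in the early corner.

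The differences stood above the error of the probes. The root mean square SE of a window was 0.16, so that probe error makes up 17.2% of the variance of window differences. Computed separately from odd and even probes, the difference had r = 0.74 over 10300 windows, whose probes alternate along the same DNA and were read on the same arrays. Neighbouring windows also differed together: r was 0.68 at a distance of 0.2 Mb, 0.43 at 0.4 Mb, 0.26 at 0.6 Mb, 0.11 at 1 Mb and 0.041 at 2 Mb. The SD fell from 0.39 in windows of 200 kb to 0.30 in 2388 windows of 1 Mb and 0.19 in 503 windows of 5 Mb. Most of the likeness between neighbours was thus lost within 1 Mb. Domains, taken as runs of the same side of the array's median window after a running mean over 3 windows, had a median length of 1.4 Mb on both arrays, and numbered 1165 in control and 1024 in non-induced cells.

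Windows ranked in the middle of timing differed most and the earliest ones least. To keep the noise of the compared arrays out of the ranking, windows were ranked by the mean timing of the KO and induced arrays. Windows where KO and induced disagree, early on either and late on the other, fall toward the middle by this ranking. Induced minus KO had r = 0.55 with non-induced minus control, so the ranking may itself gather large differences there. Its part in the values of the middle quintile was not tested. In the middle quintile the SD of the difference was 0.48 and 30.2% of windows were called, 342 later and 342 earlier. In the earliest quintile the SD was 0.25 and 7.03% were called, 13 later and 146 earlier. The latest quintile lay between, with an SD of 0.33 and 18.1% called, 367 later and 42 earlier. After scaling, 28.3% of the middle, 4.99% of the earliest and 10.2% of the latest quintile were called. By this ranking the middle thus remained the most variable class.

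The mean difference was lower in the later replicating quintiles. It was -0.22 in the latest quintile, -0.22 in the next, -0.0042 in the middle, 0.12 in the fourth and 0.069 in the earliest. From the earliest to the latest quintile it fell by 0.29. Once both arrays had the spread of control, the means were -0.095, -0.13, 0.028, 0.050 and -0.045, and the fall was 0.050. The later quintiles then still lay below the middle and the fourth, while the earliest lay below 0 as well. Removal of a linear trend on the same ranking takes out this gradient by construction, and left the latest quintile 0.062 above the earliest. Windows on steep timing gradients were called more often: 24.0% in the steepest quintile of slope (mean 2.21 log2 per Mb) against 14.8% in the flattest (0.091 log2 per Mb), with 198 later and 297 earlier windows in the steepest and 176 and 130 in the flattest.

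**Figure D2:**
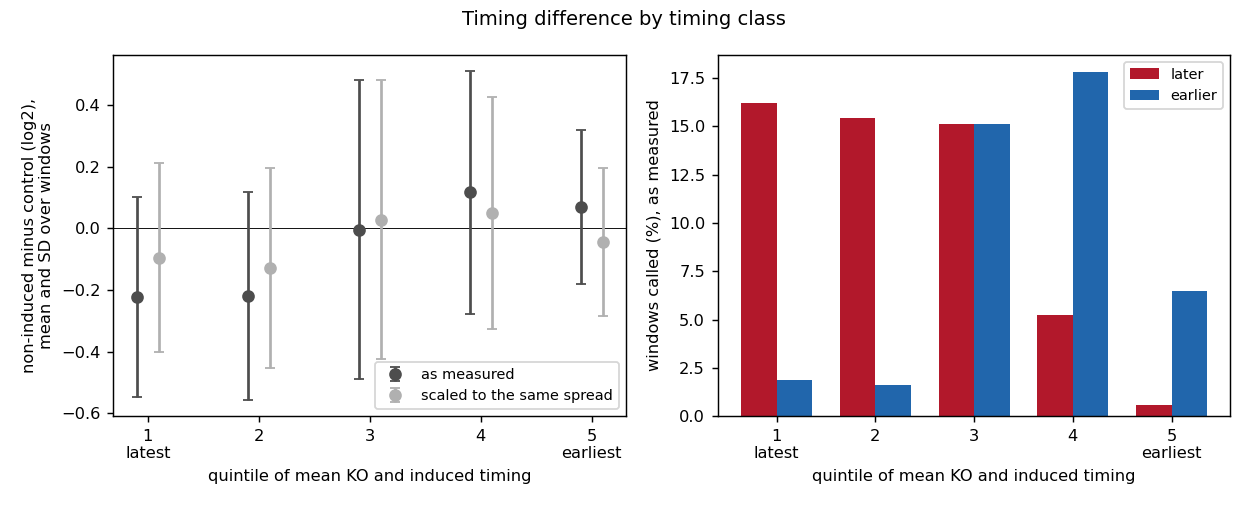
Windows in quintiles of the mean timing of the KO and induced arrays (x axis); left, mean and SD over windows of the non-induced minus control difference (log2), as measured and scaled to the same spread; right, the percent of windows called later or earlier. Later calls make up 16.2% of the latest quintile and 0.574% of the earliest, earlier calls 1.86% and 6.45%, and the SD bars are longest in the middle quintile.

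Few windows changed from plainly early to plainly late. Timing was above 0 on both arrays in 4342 windows (38.4%) and at or below 0 on both in 5506 (48.7%). It was above 0 in control only in 746 windows (6.59%) and in non-induced only in 720 (6.36%), nearly as many in each direction. With a margin of 0.25 on both sides of 0, 171 windows (1.51%) were early in control and late in non-induced cells, and 161 (1.42%) the reverse. Of the later windows, 744 were at or below 0 on both arrays, that is, late blocks with a lower value on the non-induced array. Of the earlier windows, 454 crossed from at or below 0 to above 0, and 365 were above 0 on both.

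Called windows of the same direction were joined into a region where less than 1 Mb lay between them. There were 443 later regions, 181 of them a single window, and 392 earlier regions, 166 of them a single window. Their median length was 0.4 Mb in both directions. Of these, 165 later and 138 earlier regions held 3 or more called windows, and 7 and 4 held 10 or more. The 12 regions with the largest mean difference in each direction, among those with 3 or more called windows, and the longest are described next. They were chosen by that difference, so its size in them is a description. The last later region taken had a difference of -0.958 and the next, not taken, -0.955; in the other direction these were 0.805 and 0.794.

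The largest later region was chromosome 9 from 68000001 to 68600000. Its timing was 0.54 in control and -0.81 in non-induced cells, which is -1.35 ± 0.09 (SE over 29 probes) apart. The 1 Mb on each side was early on both arrays, at 0.52 and 0.29 in control and 0.75 and 0.26 in non-induced cells, so the non-induced array shows a narrow late dip inside an early block that the control array lacks. In its centre, from 68200001 to 68400000, timing was 0.73 in control and -0.89 in non-induced cells (9 probes). The KO and induced arrays were late there too, at -1.21 and -1.04 in that window. The control array thus stood apart from the other 3. Chromosome 9 held another of the 12, from 104400001 to 105400000, at -0.011 in control and -1.26 in non-induced cells, -1.25 ± 0.06 apart (SE over 91 probes). There, too, KO was late, at -1.04.

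Other regions were early peaks in a late surrounding that were missing or lower in non-induced cells. On chromosome 8 from 31800001 to 33400000, mean timing was 0.70 in control and -0.32 in non-induced cells (difference -1.02 ± 0.06, SE over 82 probes), between flanks of -0.88 and -0.67 in control and -0.70 and -0.74 in non-induced cells. KO reached 0.44 there, and induced cells -0.61. On chromosome 15 from 42800001 to 43800000, control and KO were at 0.59 and 0.29, whereas non-induced and induced cells were at -0.55 and -1.46. The control flanks were at -0.63 and -1.18. In its centre, from 43200001 to 43400000, control reached 1.06 and non-induced cells -0.48 (12 probes). Chromosome 7 from 77000001 to 77600000 had the same form, with control and KO at 0.30 and 0.18 and the other pair at -0.77 and -1.08. In these 3 regions the KO array, on the slide of the control, kept the early value, and the induced array, on the slide of the non-induced one, lacked it.

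Along chromosome 16 from 85400001 to 87200000, the longest of the 12 with 9 windows, control and KO were early, at 0.38 and 0.56, and non-induced and induced cells late, at -0.58 and -0.78. Its control profile had a pair of early peaks, of which the one after the region's end was early on all 4 arrays, as the profile plot shows. In the window from 86000001 to 86200000 control and KO were at 1.17 and 1.14, and non-induced and induced cells at -0.41 and -0.66, over 5 probes. Chromosome 2 held a pair of the 12. From 23600001 to 24600000, at the edge of an early block, timing was 0.59 in control and 0.24 in KO, against -0.50 in non-induced and -0.87 in induced cells (75 probes). From 137000001 to 137800000, inside a late block with flanks of -1.02 and -1.07 in control, it was -0.095, 0.13, -1.08 and -1.26 in the same order (23 probes).

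The other later regions were of mixed kinds. Chromosome 3 from 143000001 to 143600000 was early in control (0.31) and KO (0.24) and late in non-induced (-0.71) and induced cells (-0.73), within early flanks and over only 21 probes. Chromosome 3 from 7600001 to 8800000 was 0.17, -0.38, -0.82 and -1.30 in the order control, KO, non-induced and induced. Chromosome 15 from 71200001 to 72000000 was 0.011, -1.14, -0.98 and -1.56, with control again apart from the other 3. Chromosome 5 from 119600001 to 120400000 was 0.44, -0.26, -0.55 and -0.47. On chromosome 1, the longest later stretch, 4.4 Mb from 115000001 to 119400000, held 11 called among 17 measured windows, and timing was 0.24 in control against -0.38 in non-induced cells, with KO at -1.10 and induced cells at -0.93. Its difference of -0.62 ± 0.05 (SE over 178 probes) was -0.30 with loess within arrays and -0.32 with normexp, under the threshold. A flank is early or late here by the mean of control and non-induced timing over the 1 Mb beside the region. By this measure 6 of the 12 lay in late surroundings, 3 in early ones and 3 between an early and a late side.

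**Figure D3:**
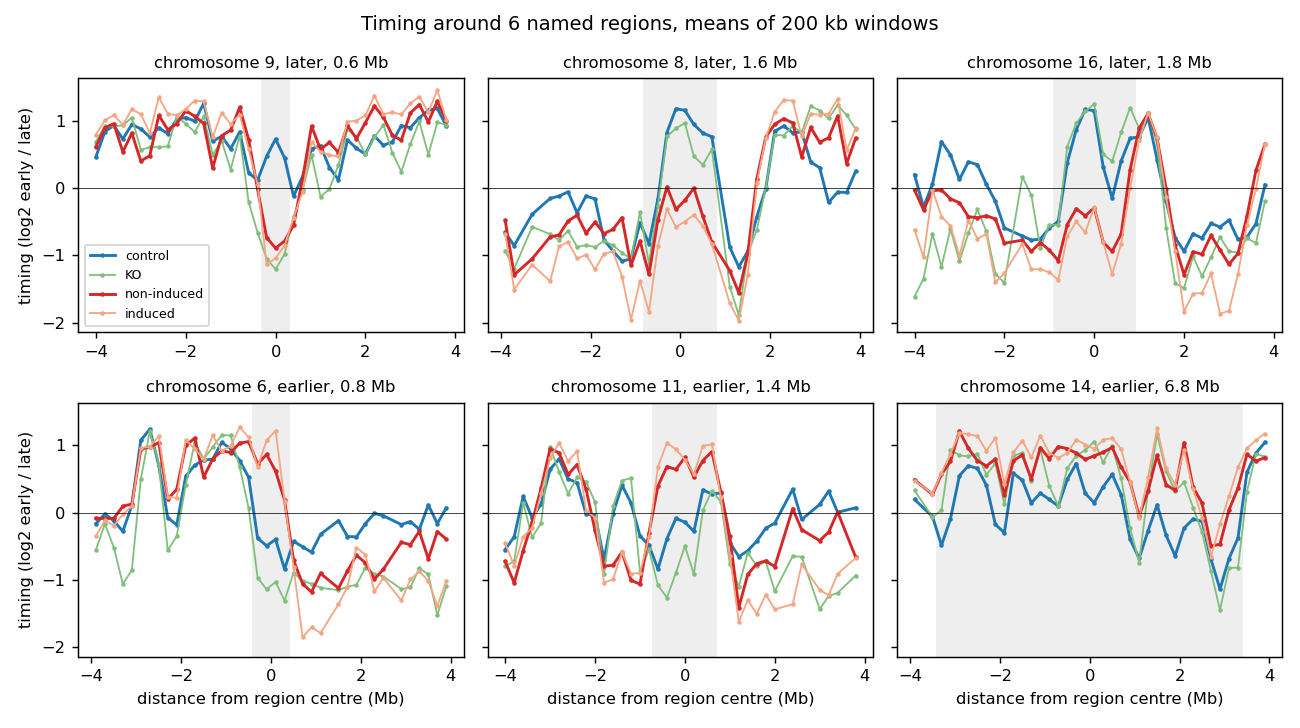
Timing (log2 early over late, mean of 200 kb windows) within 4 Mb of the centre of 6 named regions, against distance from the centre in Mb, for the 4 arrays; the grey band is the region. On chromosomes 8 and 16 control and KO have an early peak that non-induced and induced cells lack, on chromosome 9 control alone has no late dip, and on chromosomes 6 and 11 non-induced and induced cells are earlier than control and KO.

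Earlier regions were led by the last windows of chromosome 13, from 119800001 to 120400000, whose last probe is at 120283153. Timing there was -0.50 in control and 0.70 in non-induced cells, 1.20 ± 0.14 apart (SE over 32 probes), next to 1 Mb of late timing at -1.13 and -1.30. The KO array was at -0.16 and the induced array at 0.76. The start of the same chromosome differed the other way. In the 5 Mb window from 1 to 5000000, 117 probes gave -0.12 in control and -0.071 in KO. Non-induced and induced cells were at -0.88 and -1.18. The difference of this window, -0.75 ± 0.05 (SE), was the lowest of 5 Mb windows with 100 or more probes, though it held few probes for its length. The highest of those was chromosome 14 from 65000001 to 70000000, at 0.55 ± 0.03 (SE over 442 probes).

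That stretch lies in the longest earlier region, of 6.8 Mb on chromosome 14 from 62800001 to 69600000, with 21 called of 34 windows. Its mean timing was 0.061 in control and 0.63 in non-induced cells, with KO between them at 0.41 and induced cells at 0.76 (611 probes), and its difference was 0.57 ± 0.03 (SE). The control profile ran below the non-induced one along nearly its whole length, as the profile plot shows, with rises and dips at like places. The flanks were early on both arrays, so the region is a weakly early block in control and an early one in non-induced cells. Chromosome 14 held another region farther along, from 103400001 to 104200000, an isolated block in late surroundings, where control and KO were at -0.56 and -0.12 and the other pair at 0.29 and 0.25.

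Of the 12 earlier regions, 6 lay between an early and a late side, 3 in late surroundings and 2 in early ones, and the end of chromosome 13 had a single flank. On chromosome 6 from 101000001 to 101800000, the 1 Mb before the region was early on both arrays, at 0.82 in control and 0.96 in non-induced cells, and the 1 Mb after it late, at -0.46 in control. The region itself was late in control (-0.51) and KO (-1.10) and early in non-induced (0.64) and induced cells (0.75; difference 1.16 ± 0.09, SE over 48 probes), so the early block reached farther on the non-induced and induced arrays. On chromosome 9 from 95200001 to 95800000 the block borders an early side at 0.69 in control and 0.81 in non-induced cells. It was -0.47 in control but between 0.59 and 0.85 on the other 3 arrays, so that control stood apart. Chromosome 17 from 81200001 to 81800000 also adjoined an early block, with control and KO at -0.27 and 0.042, and non-induced and induced cells at 0.68 and 0.75.

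Chromosome 1 held a pair of the earlier regions. From 78000001 to 79000000, in late surroundings, timing was -0.70 and -0.22 in control and KO and 0.42 and 0.61 in the other pair, and its first window was -0.93 in control and 0.76 in non-induced cells (difference 1.69 ± 0.18, SE over 13 probes). From 108000001 to 108800000 control and KO were at -0.41 and -0.026, and the other pair both at 0.53. On chromosome 11 from 34400001 to 35800000 control and KO were at -0.11 and -0.49 and non-induced and induced cells at 0.70 and 0.85 (114 probes). KO here lay below control, so control and KO together differed from the other pair. The same held on chromosome 19 from 54000001 to 55200000, a dip inside an early block, with control and KO at -0.29 and -0.49 and the other pair at 0.53 and 0.67. On chromosome 4, the stretch from 124200001 to 124800000 was -0.070 in control and 0.77 in non-induced cells. The remaining pair, chromosome 5 from 52400001 to 53200000 and chromosome 6 starting at 28200001 and ending at 28800000, were -0.38 and -0.46 in control and 0.43 and 0.36 in non-induced cells.

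In the called windows and regions, the induced array, which their choice did not use, mostly lay on the side of the non-induced one. Its value lay nearer to non-induced than to control in 12 of 12 named later and 12 of 12 named earlier regions, in 164 of 165 later and 129 of 138 earlier regions with 3 or more called windows, and in 96.1% of later and 88.1% of earlier windows (96.5% and 84.9% after scaling). The KO array was divided: it lay nearer to non-induced in 5 of 12 named later and 4 of 12 named earlier regions. Among windows this held for 56.6% of later and 38.2% of earlier ones (50.5% and 34.4% after scaling). The choice of windows used the control and non-induced values, so these shares are a description. No such share was taken over uncalled windows. Over all windows, induced timing had r = 0.96 with non-induced and 0.86 with control timing. Whether the called windows differ from the rest in this was not tested. Induced and non-induced cells share a slide and a labelled mutant, which cannot be told apart.

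A difference that shares no array with non-induced minus control is induced minus KO, which also runs from the slide of the control to that of the non-induced array. Across windows these differences had r = 0.55, and r = 0.45 after scaling. In the later windows induced minus KO had a median of -0.56, and induced was below KO in 1017 of 1189 (85.5%), against 45.6% of uncalled windows. In the earlier windows its median was 0.41, and induced was above KO in 82.6%, against 54.4% of uncalled windows. After scaling, these were 78.3% and 82.1% of the windows then called, against 46.2% and 53.8% of those then uncalled. Regions with 3 or more called windows were taken next. Induced minus KO had the sign of non-induced minus control in 145 of 165 later and 125 of 138 earlier ones (136 and 120 after scaling). It had that sign in 11 of the 12 named regions of each direction, and the exceptions were those on chromosome 9 that start at 68000001 and 95200001, where KO was not like control.

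**Figure D4:**
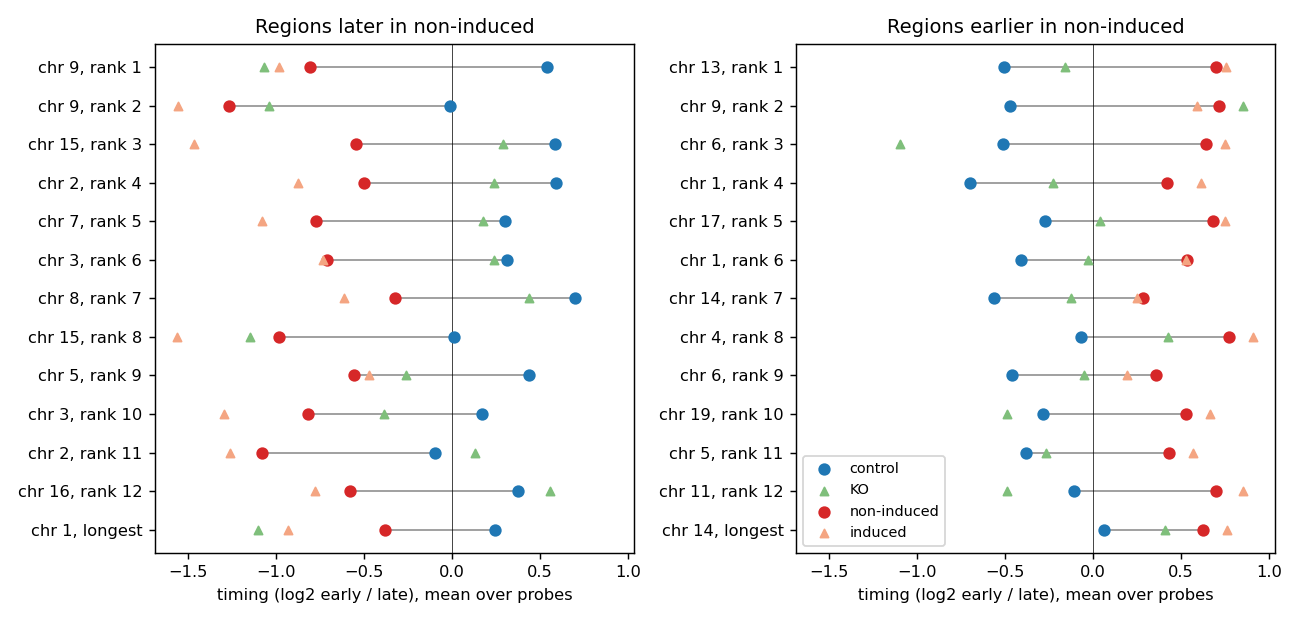
Mean timing over probes (x axis, log2 early over late) of the 12 regions of largest difference and the longest, by direction, on the 4 arrays; circles are control and non-induced, joined by a line, and triangles KO and induced. Induced lies on the non-induced side in each region shown, while KO lies near control in some and near or beyond non-induced in others.

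Set beside the other pairs of arrays, the difference between the reference cultures was smaller than that between KO and control, and after scaling came near it. The SD of window differences was 0.39 for non-induced minus control, 0.49 for KO minus control, 0.36 for induced minus non-induced and 0.51 for induced minus KO. After scaling these were 0.35, 0.39, 0.19 and 0.36. The first pair has its control array in common with the second and its non-induced array with the third, so these are values side by side and not independent. The 95th percentile of the absolute difference was 0.79 for non-induced minus control, 1.09 for KO minus control and 0.80 for induced minus non-induced, and 0.71, 0.86 and 0.43 after scaling. The closest pair after scaling was thus the one that shares both slide and labelled mutant, with a probe error of 0.12 against its SD of 0.19.

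By 1 threshold for all pairs, that of the control range, 22% of windows were later and 8.12% earlier in KO than in control (13.5% and 6.36% after scaling), where non-induced minus control had 10.5% and 8.57% (7.53% and 7.45%). Induced minus non-induced had 13.5% later and 1.05% earlier windows as measured, and 1.81% and 0.0707% after scaling. Induced minus KO had 15.1% later and 11.1% earlier windows, and 8.56% and 7.35% after scaling. KO and control share a slide, and their SD of 0.39 after scaling lay within the 0.35 to 0.41 of the 4 pairs on different slides. They differed in sex chromosome signal, with KO minus control at 1.49 on Y and -0.47 on X. Line and genotype cannot be told apart in that pair. Later outnumbered earlier windows by 2490 to 919 in KO minus control and by 1189 to 970 between the reference cultures, where the numbers were nearly level after scaling (852 and 843) and turned round in 7 of 18 settings.

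**Figure D5:**
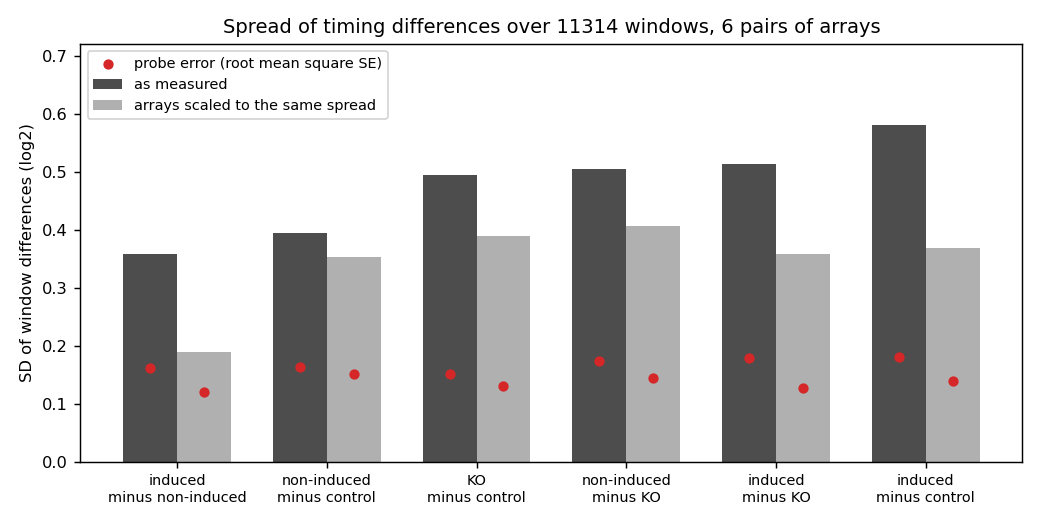
SD over 11314 windows of the timing difference (y axis, log2) for each of the 6 pairs of the 4 arrays, as measured (dark bars) and after scaling (light bars); red points give the root mean square SE over probes. After scaling, 5 pairs lie between 0.35 and 0.41 and the induced and non-induced pair at 0.19.

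The differences were spread over all 19 autosomes. The SD of window differences was 0.35 to 0.43 per chromosome, lowest on chromosome 3 and highest on chromosome 14. The share of called windows ran from 14.8% on chromosome 3 to 23.1% on chromosome 14, and r between the arrays was lowest on chromosome 14, at 0.82, and highest on chromosome 2, at 0.897. Later windows outnumbered earlier ones on 12 of the 19 autosomes. Chromosome 15 was the most one-sided, with 12.1% of windows later and 3.82% earlier, and a mean difference of -0.11 ± 0.36 (SD over 471 windows). Chromosome 12 had the lowest mean, -0.12 ± 0.39 (SD over 534 windows), with 14.0% later and 6.18% earlier. Chromosome 17 leaned the other way, with 7.26% later and 12.7% earlier windows. Chromosome means were small beside the SD within each chromosome.

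The starts of chromosomes, but not their ends, and probe density went with the direction of calls. In the first 5 Mb of measured sequence of each chromosome, next to the centromere in the mouse, 11.7% of 446 windows were later and 4.71% earlier. Their mean difference was -0.10 against -0.052 in windows outside both ends, and -0.065 against -0.037 after scaling. They also replicated later, at -0.19 against -0.064 in control. In the last 5 Mb 9.78% of 460 windows were later and 9.35% earlier, close to the 10.5% and 8.70% of the remaining windows. In the quintile of windows with the fewest probes (median 6), 12.7% were later and 3.14% earlier, with a mean difference of -0.19. In the quintile with the most probes (median 21), 8.09% were later and 10.9% earlier, with a mean of 0.017. The sparse windows replicated late, at -0.41 in control against 0.19 in the dense ones, and their probe error was higher, 0.23 against 0.12.

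Mean signal of both channels, each centred on its own median, differed between the arrays in the called windows. Early signal so centred was lower on the non-induced array in the uncalled windows too. In the later windows, mean early signal, set against the autosomal median of its channel, was -0.075 in control and -0.68 in non-induced cells, and mean late signal 0.025 and 0.19. In the earlier windows early signal was 0.13 and 0.49, and late signal 0.30 and 0.073. In the uncalled windows the difference, non-induced minus control, was -0.14 in early and -0.014 in late signal. Mean timing of the uncalled windows was -0.041 in control and -0.085 in non-induced cells. The channels and their ratio were each centred on their own median, so channel differences do not add up to the timing difference. The part of this centring in the early signal difference was not tested. Total signal, the mean of both channels on the log2 scale, differed more between the arrays than timing did, with an SD over windows of 0.60, and the early and late channel differences rose and fell together (r = 0.81 across windows). Median total signal differed by -0.36 on chromosome 3 to 0.36 on chromosome 11. It was lower by 0.20 in the later windows and higher by 0.089 in the earlier ones, with a difference of -0.056 in uncalled windows. Over all windows the difference in total signal had r = 0.17 with that of timing. From the quintile of windows with the lowest difference in total signal (mean -0.99) to that with the highest (0.69), 11.1%, 18.2%, 11.4%, 7.38% and 4.46% of windows were later, and 3.09%, 5.83%, 13.6%, 11.8% and 8.53% earlier. Neither share alone was graded across the quintiles, the later one being highest in the second and the earlier one in the third. Their balance was: later calls were the more frequent in the first and second quintiles, and earlier calls in the others. The mean timing difference in these quintiles was -0.16, -0.18, 0.0033, 0.044 and 0.029. The part of total signal in the timing differences was not tested.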

How the data were processed

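Agilent Feature Extraction made the array files, in version 11.5.1.1 per the file headers and version 9.1 per the submitters' processing notes. The deposited processed signals are intensity values from which background and spatial trend were removed, per the file headers, with a linear dye scaling of each channel, and the deposited quality columns are other values, flags of 0 or 1. The authors' log10 ratio has late signal over early signal, and the log10 values of the deposited value table were exactly those of the scanner files' ratio column in 174305 of 174305 genomic spots of each array, with a median of 0.0089 in control and -0.013 in non-induced cells. The labels give no dye swap, so only a dye effect common to both arrays cancels.

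Control spots and outlier flags (447 in control, 168 in non-induced) were dropped, repeated spots averaged per probe, and 160967 autosomal probes usable on all 4 arrays were kept, a median of 15 per window. No loess or quantile step was applied. SEs are over probes within 1 array pair. Calling was checked on simulated data. The rule, the lists of alternatives and the comparisons were chosen with earlier results of these data known. Named are the 12 regions of largest mean difference per direction with 3 or more called windows, and the longest. The planned gene names in these regions, and planned gene lists, were not analysed here, since the probes are on mm9 and the gene annotation at hand is not. The files at hand give median rather than mean spot signals, so normexp (offset 50) was run on those. Precision is limited by the number of arrays, 1 per group. Windows and calls used Python 3.11.15 (numpy 2.4.6, pandas 2.3.3), loess statsmodels 0.14.6, figures matplotlib 3.10.9, and normexp R 4.3.3 with limma 3.58.1.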

Additional observations from a re-analysis of the deposited data

How the results depend on the processing

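With 1 array per group, no array could be left out, and no paired analysis was possible because each group has 1 array. Over 18 alternatives the SD of window differences was 0.30 to 0.44, and the r of these differences with induced minus KO 0.45 to 0.60. Over the 17 of them that give these values, the r of timing was 0.86 to 0.89 and the ratio of spread 0.98 to 1.19. Changes of threshold and centring on windows cannot move any of these values, and the deposited value table holds nearly the same ratio. Under the 13 settings that change region values, 336 of 338 values of the 26 named regions kept direction and call, 2 kept direction only, and 0 turned. The 12 per direction were chosen for the largest differences in these data, 0.80 or more in size against a threshold of 0.45. Kept calls were therefore likely from the start, and these counts are a description. Of 52 calls under the other thresholds, 2 were lost, both of the longest regions; window size and probe minimum cannot move these values. Later windows numbered 792 against 864 earlier with quantile normalization, 740 against 1034 after removal of the linear trend on timing, 753 against 865 with 10 or more probes, 593 against 677 with odd and 650 against 668 with even probes, 836 against 1275 centred on windows, and, in an alternative chosen after seeing the data, 675 against 1047 once scaled and centred on windows. In these 7 of 18 settings the excess of later windows turned round, and the cause was not tested. Later and earlier windows numbered 1809 and 1575 in windows of 100 kb, 556 and 364 in windows of 500 kb, and 609 and 485 with a threshold of 0.35; other window sizes and probe minimums change the number of windows measured. The latest minus the earliest quintile was -0.050 after scaling, the same once also centred on windows, -0.016 with quantile normalization, -0.15 with normexp and 0.062 after removal of the linear trend on timing, which takes out that gradient by construction.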
